A study of Mus musculus with 9 samples.

Results

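RNA levels of the nuclear-encoded genes of oxidative phosphorylation were described in C2C12 cells, an established line of mouse myoblasts. The members were the protein-coding genes whose symbol begins with Ndufa, Ndufb, Ndufc, Ndufs, Ndufv, Uqcr, Cox4, Cox5, Cox6, Cox7, Cox8 or Atp5, with Sdha, Sdhb, Sdhc, Sdhd, Cyc1 and Cycs added and mitochondrial genes and pseudogenes left out. The rule gave 96 of 21929 protein-coding genes in a count table of 53700 genes. These were 7 core subunits, 29 accessory subunits and 8 assembly factors of complex I, 4 genes of complex II, 9 of complex III, 20 of complex IV, 18 of complex V and the gene of cytochrome c. Ndufa4 and Ndufa4l2 were counted with complex IV, where their proteins belong. Prefix and membership of a complex are not the same thing, since the rule also took in the Ndufaf assembly factors and Atp5s.

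Control, Valine and Val+PA, with 3 libraries each, were compared, and the wells of a group came from a single 6-well plate. All plates were first starved for 12 h in OPTI-MEM. Control cells were collected at that point, without further treatment. Valine cells then received 0.45 mM valine for 36 h. Val+PA cells were given the same 0.45 mM of valine for 24 h, and palmitic acid, a common saturated fat of the diet, at 75 µM for 12 h. Plate, time in culture and treatment cannot be told apart between the groups, and the p-values measure only the spread between wells of a plate. In bulk RNA, fewer cells of a type and less RNA per cell cannot be told apart either.

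Oxidative phosphorylation passes electrons from NADH (complex I) and succinate (complex II) through coenzyme Q, complex III and cytochrome c to oxygen at complex IV. Complexes I, III and IV pump protons across the inner mitochondrial membrane, and complex V, the ATP synthase, uses the return of these protons to make ATP. Most subunits are encoded in the nucleus and a few in mitochondrial DNA, and in muscle several complex IV subunits exist as isoforms that replace the general form as fibres mature.

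The libraries held between 26750226 and 35976589 counts each, and a single count was worth 0.0271 to 0.0403 CPM, the unit of level used here (counts scaled to library size with TMM factors). Of all counts, members took 0.891% to 0.911% in the Control libraries, 0.84% to 0.858% in the Valine libraries and 0.827% to 0.892% in the Val+PA libraries. Of the myoblast markers, 10 of 10 were measured at a mean of at least 1 CPM, as were 9 of 12 myotube and 9 of 10 fibroblast markers. Control 3 and Val+PA 2 stood apart from the other libraries of their plates. Of the 90 members that could be tested, 23 (25.6%) lay over 0.5 log2 units from the mean of the other 2 libraries of the group in Control 3 and 21 (23.3%) did so in Val+PA 2, where the shares over all 18415 tested genes were 17.6% and 21.3%. Counts of members and of the lists are therefore given with and without these 2 libraries. The fit without them was chosen after the data were seen and leaves 2 libraries each in Control and Val+PA. Leaving out libraries because they stand apart lowers the spread, so the standard errors and adjusted p of that fit are likely too small.

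Most changes of the members were modest, and they went both ways. Against Control, 55 of 90 tested members had a log2 fold change below 0 in Valine and 59 in Val+PA. Over all 18415 genes tested, 9261 and 9235 did so. Whether the system as a whole shifted was not tested. With valine, 9 of 90 tested members were higher and 12 were lower than in Control. Over all genes tested, 41.9% were called in this comparison, with 20.8% higher and 21.1% lower, so that the members' share of 23.3% was the smaller. The median log2 fold change of the members was -0.133 against -0.005 for all genes. With valine and palmitic acid, 9 members were higher and 16 lower than in Control. This was a share of 27.8% beside 39.2% of all genes (20.4% higher and 18.8% lower). The median of the members was -0.101 against -0.002 for all genes. A call is an adjusted p below 0.05 from the edgeR quasi-likelihood test with Benjamini-Hochberg adjustment over all genes.

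Without Control 3 and Val+PA 2, 15 members were higher and 24 lower in each comparison with Control, 43.3% of the members beside 54.1% of all genes for Valine (27% higher, 27.2% lower) and 49.8% for Val+PA (25.2% higher, 24.6% lower). The calls made with all libraries were all among them. By complex, the largest groups were then complex V, with 2 higher and 7 lower of 17 in each comparison, and the accessory subunits of complex I, with 7 higher and 7 lower of 29 in Valine and 4 and 7 in Val+PA. Complex IV had 4 higher and 2 lower of 15 in Valine and 3 and 2 in Val+PA. Complex III had 1 and 3 of 9 and then 2 and 3, complex II had 0 and 1 of 4 and then 2 and 1, and the assembly factors had 1 and 2 of 8 and then 1 and 3. The median of the members was then -0.044 for Valine and -0.065 for Val+PA. Both comparisons use the same Control libraries, so their calls are not independent. Of 27 members called in either, 9 were higher in both, 10 were lower in both and 0 went opposite ways, and 63 were called in neither. When each of the 9 libraries was left out in turn, 7 of the 9 higher and 6 of the 12 lower calls for Valine held in all 9 fits, as did 8 of the 9 higher and 8 of the 16 lower calls for Val+PA.

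**Figure D1:**
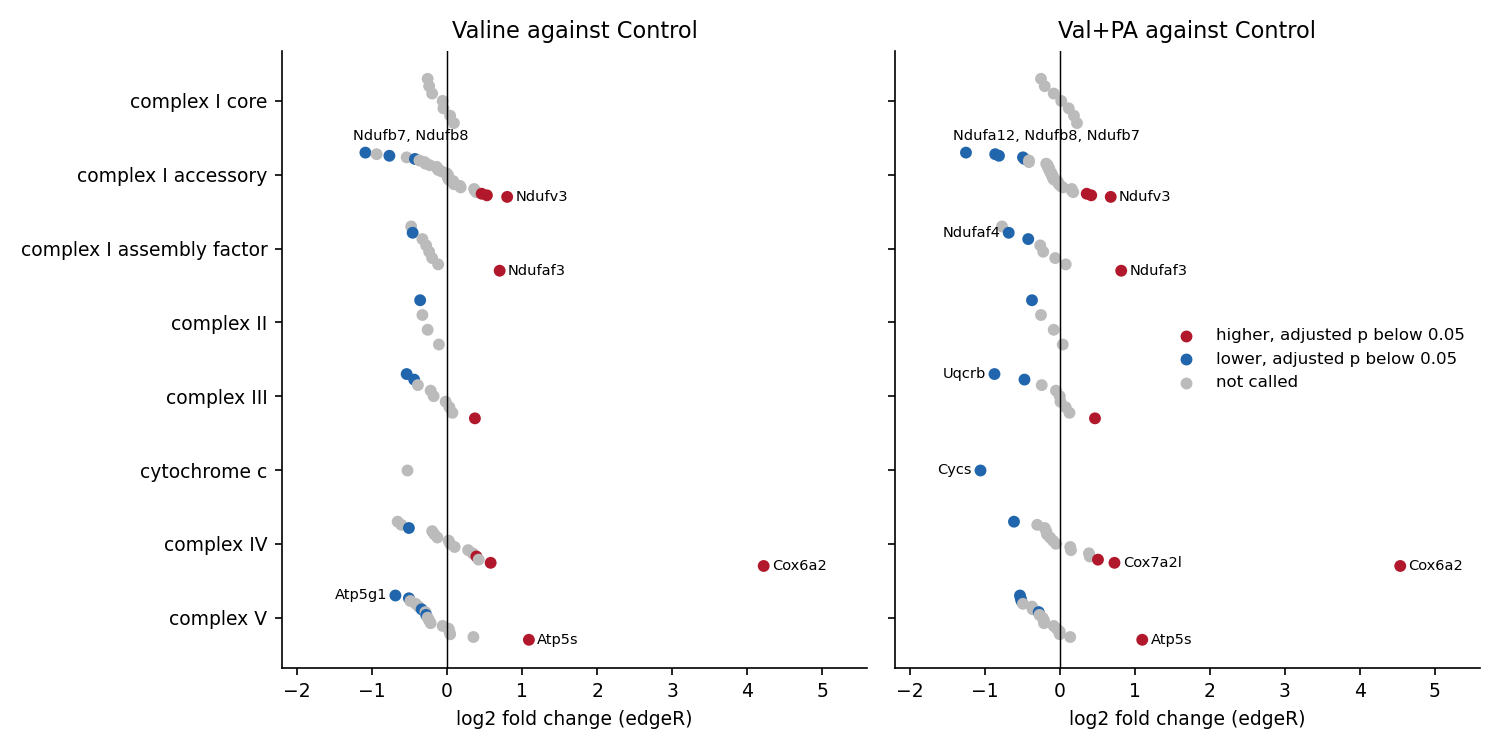
Each point is a tested member, placed by its edgeR log2 fold change against Control (x axis) within its complex (y axis), with called members coloured. Most points lie within 0.5 of zero, complex I core subunits have no call, and Cox6a2 stands alone at 4.22 and 4.54.

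A total of 6 members were not tested because their counts were too low. Cox8c and a second entry for Atp5o, whose exons lie wholly within those of Atp5o and Donson, had no count in any library. Cox4i2, Cox6b2, Cox7b2 and Cox8b, isoforms tied to lung, testis or striated muscle, had 15, 19, 57 and 29 counts over all 9 libraries. Cox6a2 passed the filter only through the treated groups, since its Control libraries held 6, 5 and 1 counts.

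Per gene length, the members spanned a wide range on the deposited normalized signal. The order between genes depends on the length taken for each gene. Atp5b, the catalytic beta subunit of the ATP synthase, had the highest mean at 852, followed by Cox8a at 643, Atp5a1 at 542, Cox7a2 at 498 and Uqcr10 at 370. By complex, the median signal was 136 for complex III, 107 for complex II, 77.1 for complex I core subunits and 43.6 for complex V. It was 30.4 for complex I accessory subunits, 27.1 for complex IV, which holds the rarely used isoforms, and 13.1 for complex I assembly factors, which act on the complex without staying in it. Cytochrome c, encoded by Cycs, had a signal of 64.8. In exon length the members were short, with a median of 1578 bases against 3488 for protein-coding genes.

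**Figure D2:**
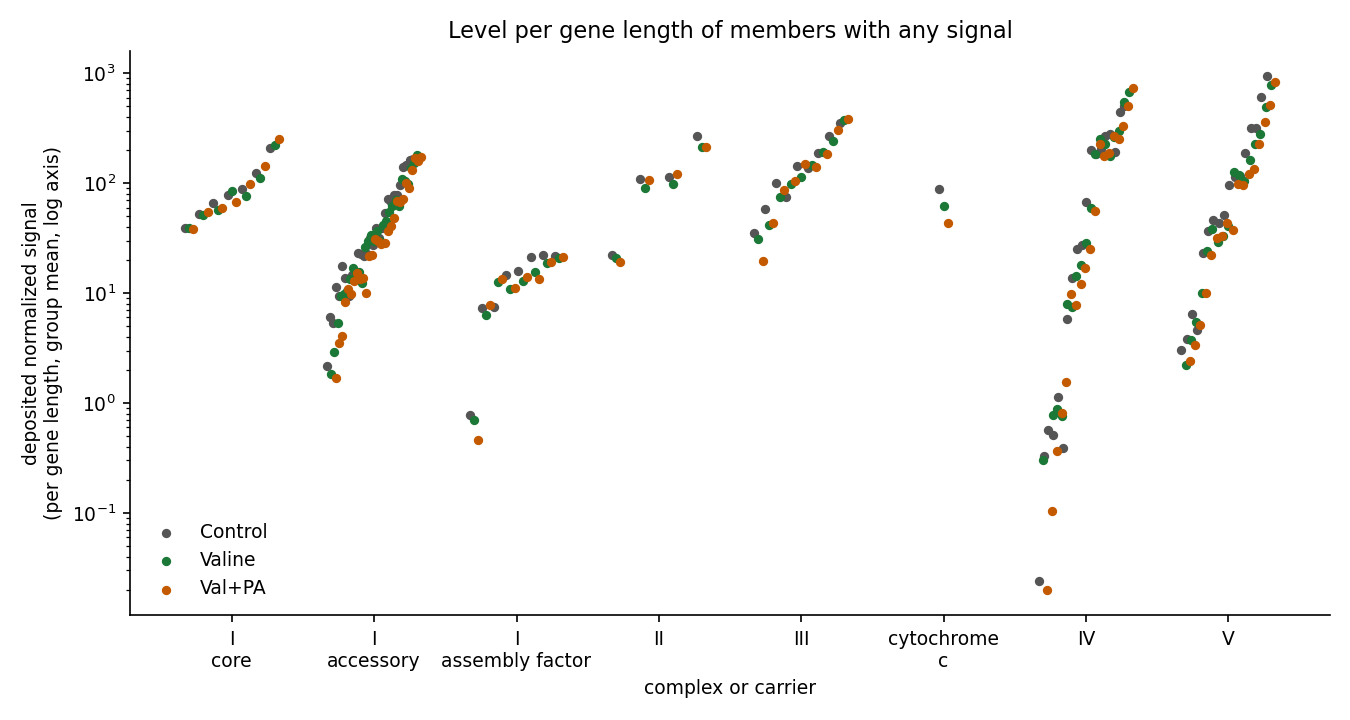
Group means of the deposited signal per gene length (y axis, log scale) for each member with any signal, ordered within its complex (x axis) and coloured by group. Complex I assembly factors lie below the core subunits, and complexes IV and V span the widest range, up to 643 and 852.

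Promoter sequence is shown for the 2 members with the largest rise and the 2 with the largest fall in Valine, among those called the same way in both comparisons and with a RefSeq start near the annotated one. Examples with known sites are added, because nuclear respiratory genes are known to share binding sequences for NRF1, ETS factors, YY1 and estrogen-related receptors. RefSeq windows (GRCm38.p6) from 250 bases before to 50 after the start were found for 78 of the 96 members and 16895 protein-coding genes, and were searched on both strands. The NRF1 palindrome occurred in 7 members (8.97%) and in 1.37% of all windows. YY1 letters AAGATGGCG occurred in 8.97% of members and 2.02% of all windows, the ETS motif CCGGAAG in 21.8% and 12.2%, and the estrogen-related receptor motif TCAAGGTCA in 2.56% and 0.331%. The SP1 motif GGGCGG was found at 46.2% and 48.0%, and the E-box CAGCTG, a sequence of myogenic factors, at 7.69% and 15.2%. None of the motifs is contained in another, although matches may overlap in a window.

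Split by call, the NRF1 letters were in 0 of 7 members higher in either comparison, 1 of 14 lower and 6 of 53 called in neither. The estrogen-related receptor letters were in Atp5g3 and Sdhd, both of them lower in both comparisons. These are matches of letters, with no measurement of binding. The stretches below are on the strand of the gene, with motif matches in capitals. Atp5s (chr12:69724845-69724974, plus strand) and Ndufv3 (chr17:31520015-31520144, plus strand) are the promoters of higher members, each with an SP1 match. Ndufb7 (chr8:83566658-83566787, plus strand), with an ETS match, and Ndufb8 (chr19:44555413-44555542, minus strand), with an SP1 match, are those of lower members. Ndufaf4 (chr4:24897945-24898004, plus strand), Ndufa11 (chr17:56717677-56717736, plus strand) and Cox6a1 (chr5:115349086-115349145, minus strand) show the NRF1 palindrome, and Atp5g3 (chr2:73911345-73911403, minus strand) shows the estrogen-related receptor letters in reverse complement.
Atp5s: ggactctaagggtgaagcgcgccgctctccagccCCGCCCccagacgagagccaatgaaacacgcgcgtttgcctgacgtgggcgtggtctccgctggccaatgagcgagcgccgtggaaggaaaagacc
Ndufv3: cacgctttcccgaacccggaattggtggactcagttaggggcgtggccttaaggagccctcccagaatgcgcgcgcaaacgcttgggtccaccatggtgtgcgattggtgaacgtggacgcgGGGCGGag
Ndufb7: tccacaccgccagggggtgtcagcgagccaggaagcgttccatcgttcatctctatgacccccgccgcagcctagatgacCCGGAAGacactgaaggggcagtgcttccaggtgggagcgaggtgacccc
Ndufb8: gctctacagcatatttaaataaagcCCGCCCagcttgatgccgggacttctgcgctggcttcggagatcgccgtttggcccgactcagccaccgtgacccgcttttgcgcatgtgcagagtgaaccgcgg
Ndufaf4: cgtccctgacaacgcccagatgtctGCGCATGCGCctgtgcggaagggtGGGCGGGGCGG
Ndufa11: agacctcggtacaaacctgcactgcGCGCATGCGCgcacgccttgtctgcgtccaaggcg
Cox6a1: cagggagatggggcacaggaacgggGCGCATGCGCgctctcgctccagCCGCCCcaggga
Atp5g3: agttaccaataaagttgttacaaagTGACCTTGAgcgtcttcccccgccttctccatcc

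The core of complex I, which carries the flavin and iron-sulfur clusters that move electrons from NADH to coenzyme Q, had no member called in either comparison with Control. Of all genes, 41.9% and 39.2% were called in these comparisons. The 7 log2 fold changes ran from -0.26 to 0.09 for Valine and from -0.25 to 0.23 for Val+PA. Ndufs8, an iron-sulfur subunit, had the smallest adjusted p for Valine, 0.06, at 39.7, 40.2 and 46.2 CPM in Control and 35.7, 35.8 and 33.9 CPM in Valine. These values did not overlap, although the log2 difference was only -0.26 (SE 0.10). With Control 3 and Val+PA 2 left out, Ndufs8 was lower in Valine (log2 -0.18, adjusted p 0.0432) and Ndufv1, the flavin-binding subunit, was higher in Val+PA (log2 0.19, adjusted p 0.0402).

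Accessory subunits of complex I, which surround and stabilise the core, moved both ways. For Valine 3 of 29 were higher and 3 lower, and for Val+PA 3 were higher and 5 lower. These shares of 20.7% and 27.6% lay below the 41.9% and 39.2% of all genes. Ndufv3 (chr17:31520115-31531331, plus strand), a subunit of the NADH-binding module, measured 16.8, 13.9 and 13.2 CPM in Control, 26.2, 27.4 and 23.0 CPM in Valine and 23.6, 26.6 and 20.0 CPM in Val+PA. All 6 treated libraries lay above all 3 Control libraries. The gene was 1.75-fold higher in Valine (log2 0.80, SE 0.14, adjusted p 0.000782) and 1.6-fold higher in Val+PA (adjusted p 0.00257).

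Ndufa6, a subunit of the LYR family, measured 21.2, 19.7 and 18.8 CPM in Control, 29, 27.3 and 30 CPM in Valine and 27.0, 25.9 and 26.9 CPM in Val+PA. It was higher in both without overlap, by 0.53 (SE 0.10, adjusted p 0.00141) and 0.42 (SE 0.10, adjusted p 0.0065) on the log2 scale. Ndufa7, of the peripheral arm, was also higher in both, by 0.46 and 0.36. Its call for Val+PA was lost without Control 3, Val+PA 1 or Val+PA 3, where the adjusted p reached 0.0897.

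Ndufb8, Ndufb7 and Ndufb10, of the membrane arm, were called lower in both comparisons. Ndufb8 (chr19:44548572-44555440, minus strand) measured 25.3, 25.1 and 30.5 CPM in Control, 13.3, 16.4 and 17.6 CPM in Valine and 14.8 CPM in each Val+PA library. The groups with valine lay below every Control library. Ndufb8 fell 1.71-fold in Valine (log2 -0.77, SE 0.13, adjusted p 0.0006) and 1.82-fold in Val+PA (log2 -0.86, SE 0.13, adjusted p 0.000296). It shares 134 exon bases on the same strand with the gene model Gm20538, so reads there cannot be placed with certainty.

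Ndufb7 (chr8:83566671-83571626, plus strand), a membrane-arm subunit on the intermembrane side, measured 13.0, 10.2 and 17.4 CPM in Control and 6.3, 5.87 and 6.83 CPM in Valine. It fell 2.13-fold (log2 -1.09, SE 0.24, adjusted p 0.00367). In Val+PA the values were 7.08, 10.6 and 5.35 CPM, of which Val+PA 2 overlapped Control, and the call at log2 -0.81 was lost without Control 3, Val+PA 1 or Val+PA 3 (adjusted p up to 0.0781). Ndufb10, also of the membrane arm, fell by 0.43 in Valine and 0.49 in Val+PA, and was called in 4 and 6 of the 9 fits that left out a library. The fits without Control 1, Control 3, Valine 1, Valine 2 or Valine 3 lost the first call, with an adjusted p of up to 0.133, and those without Control 1, Val+PA 1 or Val+PA 3 lost the second, up to 0.0652.

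Ndufa12 and Ndufab1 were called lower in Val+PA with all libraries. In Valine they were not called with all libraries and were called when Control 3 and Val+PA 2 were left out, at -1.10 (adjusted p 0.00279) and -0.27 (adjusted p 0.00799), and the difference of Val+PA from Valine did not pass the test for either gene. Ndufa12, a late-joining subunit of the peripheral arm, measured 29.0, 11.3 and 13.2 CPM in Control, 12.6, 7.76 and 7.56 CPM in Valine and 9.88, 4.16 and 8.41 CPM in Val+PA. Control 1 was far above the other Control libraries. The call (log2 -1.25, SE 0.38, adjusted p 0.0195) was lost without Control 1, at an adjusted p of 0.114, and without Val+PA 2. Ndufab1, the mitochondrial acyl carrier protein, fell by 0.47 (SE 0.14, adjusted p 0.019), and the adjusted p was 0.0517 without Control 2. Other accessory subunits were called without both libraries and not with all of them. Those for Valine were Ndufb4 (0.30), Ndufc1 (0.24), Ndufc2 (0.20) and Ndufb11 (0.17), which were higher, and Ndufa9 (-0.27) and Ndufa10 (-0.18), which were lower. For Val+PA, Ndufb9 was higher (0.29), and Ndufa10 (-0.29) and Ndufa5 (-0.60) were lower.

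Among the complex I assembly factors, 1 of 8 was higher and 1 lower in Valine, and 1 was higher and 2 lower in Val+PA. The shares called were 25% and 37.5%, beside 41.9% and 39.2% of all genes. Ndufaf3 and Ndufaf4 are known to act together early in assembly, and in Val+PA they were called in opposite directions. Ndufaf3 (chr9:108565537-108567434, minus strand) measured 6.73, 5.92 and 7.25 CPM in Control, 10.8, 10.8 and 10.7 CPM in Valine and 8.88, 12.8 and 13.5 CPM in Val+PA, with no overlap between Control and the others. It was higher by 0.70 (SE 0.17, adjusted p 0.00491) and 0.82 (SE 0.17, adjusted p 0.00198).

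Ndufaf4 (chr4:24898083-24905001, plus strand) measured 36.7, 43.4 and 41.4 CPM in Control, 26.5, 28.2 and 32.7 CPM in Valine and 31.0, 16.9 and 28.0 CPM in Val+PA. Every treated library was below every Control library. The fall passed the test in Val+PA (log2 -0.68, SE 0.19, adjusted p 0.0132) and not in Valine (log2 -0.48, adjusted p 0.0595). Without Control 3 and Val+PA 2 it passed in both, at -0.46 and -0.44. Ndufaf6, another assembly factor, fell by 0.46 and 0.42, with calls in 5 and 2 of the 9 fits that left out a library. The first was lost without Control 1, Control 3, Valine 1 or Valine 3 (adjusted p up to 0.104). The second was kept only without Val+PA 1 or Val+PA 2 and reached an adjusted p of 0.144 elsewhere. Ndufaf5 was lower in Val+PA without both libraries and not called with all of them (log2 -0.34, adjusted p 0.024).

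Complex II, which oxidises succinate and also serves the tricarboxylic acid cycle, had 1 of 4 genes called. This was 25% in each comparison with Control, beside 41.9% and 39.2% of all genes. Sdhd (chr9:50596357-50603812, minus strand), a membrane anchor, measured 166, 163 and 156 CPM in Control, 125, 127 and 125 CPM in Valine and 121, 129 and 126 CPM in Val+PA. The Control libraries were all higher than the rest, and the treated ones lay close together. Sdhd fell by 0.36 (SE 0.09, adjusted p 0.00493) and 0.37 (SE 0.09, adjusted p 0.00439) on the log2 scale.

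Sdhc, the other anchor, measured 133, 131 and 264 CPM in Control, 137, 135 and 148 CPM in Valine and 141, 183 and 175 CPM in Val+PA. A single library, Control 3, stood far above the others. The log2 difference of Val+PA from Control was -0.08 with all libraries (adjusted p 0.799) and 0.33 without Control 3 (adjusted p 0.0445). Sdhb, the iron-sulfur subunit, had the same form, with 100, 99.6 and 181 CPM in Control and 105, 141 and 146 CPM in Val+PA. It was not called with all libraries, and was higher in Val+PA without Control 3 and Val+PA 2 (log2 0.33, adjusted p 0.0258). Sdha, which holds the flavin, measured 41.0 to 49.4 CPM in Control, 38.1 to 45 in Valine and 37.0 to 38.2 in Val+PA, and was not called.

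Complex III hands electrons from coenzyme Q to cytochrome c. Of its 9 genes, 1 was higher and 2 were lower in each comparison with Control, 33.3% beside 41.9% and 39.2% of all genes. Uqcrq (chr11:53427922-53430831, minus strand), a small accessory subunit, measured 73.8, 65.2 and 60.8 CPM in Control, 80.4, 88.6 and 89.4 CPM in Valine and 85.7, 104 and 87.2 CPM in Val+PA. It was higher by 0.37 (SE 0.11, adjusted p 0.0199) and 0.47 (SE 0.11, adjusted p 0.00598), without overlap. The Valine call was lost without Control 2, Control 3, Valine 2 or Valine 3, where the adjusted p reached 0.0742.

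Uqcrb (chr13:66900617-66905378, minus strand), which lies near the coenzyme Q site, measured 15, 13.8 and 16.2 CPM in Control, 13.3, 12.2 and 13.2 CPM in Valine and 10.3, 6.18 and 7.94 CPM in Val+PA. The order was Control, Valine, Val+PA, with no overlap between any 2 groups. Uqcrb was 1.83-fold lower in Val+PA than in Control (log2 -0.87, SE 0.17, adjusted p 0.00153), and the Valine difference of -0.22 was not called.

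Uqcr11, another small subunit, fell by 0.54 in Valine (SE 0.15, adjusted p 0.011) and 0.47 in Val+PA (SE 0.15, adjusted p 0.0225). The Valine call was lost without Control 1 or Valine 3 (adjusted p up to 0.0574), and the Val+PA call without Control 1, Val+PA 1 or Val+PA 3 (up to 0.112). Cyc1, the cytochrome c1 that passes the electron on, measured 103, 96.1 and 118 CPM in Control, 73.2, 86.1 and 73.6 CPM in Valine and 77.6, 108 and 82.7 CPM in Val+PA. It was lower in Valine (log2 -0.44, SE 0.14, adjusted p 0.0215), a call lost without Control 3, Valine 1 or Valine 3, with an adjusted p of up to 0.0907. In Val+PA it was not called with all libraries and was lower without Control 3 and Val+PA 2 (log2 -0.31, adjusted p 0.00582). Of the large subunits, Uqcrfs1, the Rieske iron-sulfur protein, and the core protein Uqcrc1 were called in neither with all libraries, with their highest Control value in Control 3 (270 and 372 CPM). When Control 3 and Val+PA 2 were left out, Uqcrfs1 was higher in Val+PA (log2 0.47, adjusted p 0.00212) and Uqcrc1 was lower in Valine (log2 -0.18, adjusted p 0.0431).

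Cycs (chr6:50562563-50566538, minus strand), the soluble carrier between complexes III and IV, varied more within groups than most members. It measured 169, 185 and 86.2 CPM in Control, 98.3, 109 and 97.9 CPM in Valine and 99.9, 33.8 and 77.1 CPM in Val+PA. Control 3 and Val+PA 2 were the lowest of their groups, and Control 3 lay below all Valine libraries. With all libraries, Cycs was lower in Val+PA (log2 -1.06, SE 0.34, adjusted p 0.0247) and not called in Valine (log2 -0.53, adjusted p 0.223). The Val+PA call was lost without Control 1, Control 2 or Val+PA 3, with an adjusted p of up to 0.0873. Without Control 3 and Val+PA 2 it fell in both, with log2 differences of -0.80 (SE 0.09, adjusted p 1.16e-06) and -1 (SE 0.10, adjusted p 3.99e-07). These small standard errors follow from leaving out the 2 libraries that lay farthest from their groups.

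Complex IV reduces oxygen to water. Of its 15 tested genes, 3 were higher and 1 was lower in each comparison with Control, 26.7% beside 41.9% and 39.2% of all genes. Cox6a2 (chr7:128205435-128206387, minus strand), the isoform of heart and skeletal muscle, had the largest change of any member. It measured 0.192, 0.152 and 0.0403 CPM in Control, 2.12, 2.94 and 2.67 CPM in Valine and 2.55, 4.26 and 2.81 CPM in Val+PA. Each treated library was over 10 times any Control library. The fitted log2 fold changes were 4.22 (SE 0.39) and 4.54 (SE 0.38). Over the alternative settings they ran from 2.69 to 4.59 and from 2.95 to 4.90. Cox6a2 was kept for testing only through its counts in the treated groups, with 6, 5 and 1 counts in Control. Its call as higher is therefore not separate from its selection, and the size of the fold is uncertain. Cox6a2 remained a small part of the Cox6a signal per gene length, with mean shares of 0.202% (Control), 4.31% (Valine libraries) and 3.68% (Val+PA libraries). It shares 70 exon bases with Itgad on the opposite strand.

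The ubiquitous partner Cox6a1 (chr5:115345642-115348981, minus strand) measured 69.3, 53.0 and 157 CPM in Control, 56.0, 58.2 and 62.3 CPM in Valine and 56.6, 125 and 88.1 CPM in Val+PA. The 2 highest values were in Control 3 and Val+PA 2, and the gene was called in no comparison. The other muscle isoforms of complex IV were not called. Cox7a1 measured 1.54, 0.911 and 2.13 CPM in Control, 1.6, 2.18 and 1.93 CPM in Valine and 1.71, 2.08 and 2.16 CPM in Val+PA, with adjusted p of 0.364 and 0.296. Cox7a1 made up 1.47%, 1.34% and 1.53% of the Cox7a1 and Cox7a2 signal in the 3 groups. Cox8b held 0 to 8 counts in each library.

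Cox7a2l (chr17:83501918-83517330, minus strand), known for joining complexes III and IV into supercomplexes, measured 145, 131 and 146 CPM in Control, 217, 208 and 206 CPM in Valine and 215, 264 and 221 CPM in Val+PA. Every treated library was above every Control library. It was 1.5-fold higher in Valine (log2 0.58, SE 0.10, adjusted p 0.000788) and 1.66-fold higher in Val+PA (log2 0.73, SE 0.10, adjusted p 0.000163). Unlike Cox6a2 it is among the strongly expressed members, with a mean signal per length of 274.

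Cox8a, the general form of the smallest subunit, measured 145, 147 and 168 CPM in Control, 208, 197 and 199 CPM in Valine and 188, 249 and 221 CPM in Val+PA. It was higher by 0.39 (SE 0.11, adjusted p 0.0165) and 0.51 (SE 0.11, adjusted p 0.00366), again with no overlap. The Valine call was lost without Control 1, Control 2 or Valine 1, at an adjusted p of up to 0.0656. Cox5b (chr1:36691449-36693681, plus strand), a zinc-binding subunit on the matrix side, went the other way. It measured 18.6, 17.7 and 22.4 CPM in Control, 12.9, 15.1 and 13.0 CPM in Valine and 13.5, 12.4 and 12.3 CPM in Val+PA. Every treated library was below every Control library, and Cox5b fell by 0.51 (SE 0.13, adjusted p 0.00705) and 0.61 (SE 0.13, adjusted p 0.00256).

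With all libraries, the rest of complex IV was called in neither comparison with Control. Cox4i1, the form of subunit 4 that made up nearly all Cox4 signal, measured 128 to 188 CPM in Control, 133 to 139 in Valine and 132 to 202 in Val+PA. Cox5a, which binds next to it, measured 57.4 to 76.9 CPM, 59.7 to 61.0 and 49.1 to 62.3 in the same order. Leaving out Control 3 and Val+PA 2 made Cox5a lower in both, at -0.31 (adjusted p 0.000691) and -0.32 (adjusted p 0.00144), and Cox7c higher in Valine, at 0.19 (adjusted p 0.0172). Cox6b1 ran from 85.9 to 107 CPM, Cox7a2 from 142 to 254 and Cox7b from 63.7 to 154 over all libraries. Ndufa4 and its relative Ndufa4l2, a gene known for its response to low oxygen, were also not called. The Ndufa4l2 level was 0.272 to 1.22 CPM, with its highest value in Val+PA 2.

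**Figure D3:**
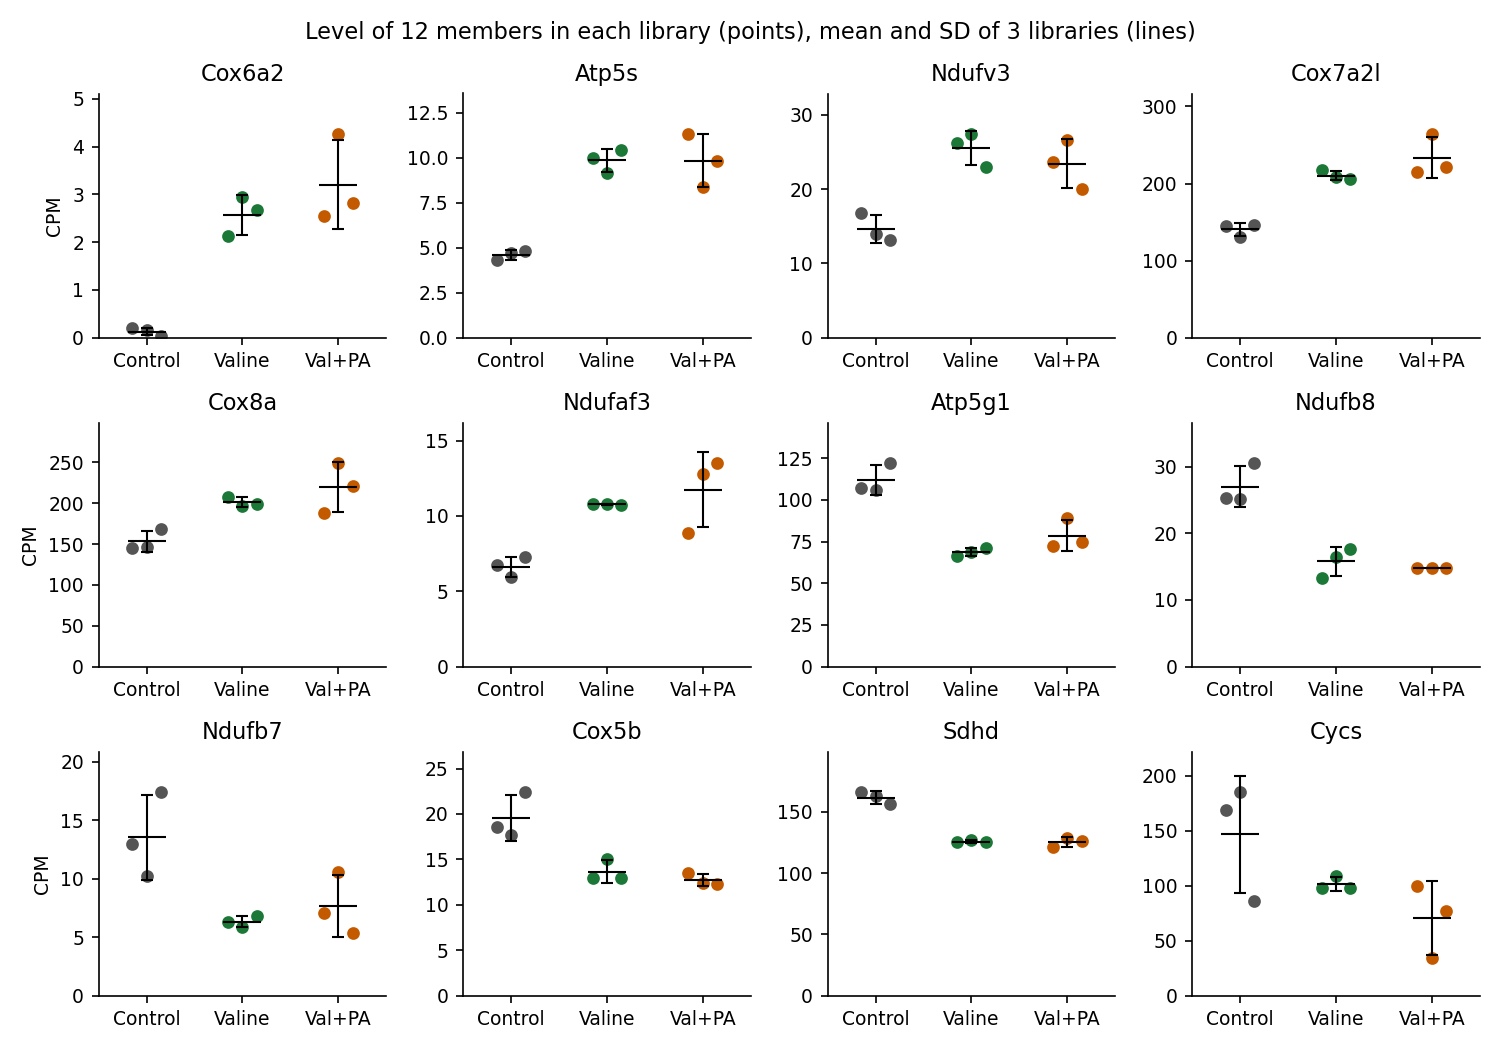
CPM (y axis, linear from 0) of 12 members in each library, as points by group (x axis), with the mean and SD of 3 libraries as lines. Cox6a2, Atp5s, Ndufv3, Cox7a2l, Cox8a and Ndufaf3 have all treated points above Control, Atp5g1, Ndufb8, Cox5b and Sdhd have them below, and Ndufb7 and Cycs show overlap in Val+PA.

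Complex V had 1 gene higher and 4 lower of 17 tested in each comparison with Control. This share of 29.4% lay below the 41.9% and 39.2% of all genes. The medians were -0.262 for Valine and -0.23 for Val+PA, against -0.005 and -0.002 for all genes. Atp5s (chr12:69724950-69744660, plus strand), named as subunit s or coupling factor B and counted here by its prefix, was the only gene that was higher. It measured 4.3, 4.71 and 4.83 CPM in Control, 10.0, 9.16 and 10.4 CPM in Valine and 11.3, 8.39 and 9.8 CPM in Val+PA. Every treated library lay far above every Control library, while Valine and Val+PA overlapped. Atp5s was 2.13-fold higher in Valine (log2 1.09, SE 0.15, adjusted p 0.000114) and 2.14-fold higher in Val+PA (log2 1.10, SE 0.15, adjusted p 0.000117).

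The c subunit, which forms the rotating ring in the membrane, is made from 3 genes that code for the same mature protein with different import sequences. Atp5g1 (chr11:96068852-96075670, minus strand) measured 107, 106 and 122 CPM in Control, 66.6, 69.0 and 71.4 CPM in Valine and 72.1, 89.0 and 74.6 CPM in Val+PA. Its Control libraries were all above the others. It fell 1.62-fold (log2 -0.69, SE 0.11, adjusted p 0.000325) and 1.42-fold (log2 -0.51, SE 0.11, adjusted p 0.00287).

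Atp5g3 (chr2:73908447-73911326, minus strand), the most expressed of the 3 per length, measured 311, 300 and 400 CPM in Control, 249, 223 and 240 CPM in Valine and 227, 234 and 247 CPM in Val+PA. It fell by 0.51 (SE 0.12, adjusted p 0.0043) and 0.52 (SE 0.12, adjusted p 0.00403), without overlap. Atp5g2 measured 92.5, 86.5 and 57.0 CPM in Control, 103, 103 and 96.1 CPM in Valine and 86.9, 63.9 and 85.5 CPM in Val+PA. It was not called (adjusted p 0.118 and 0.997), and Control 3 and Val+PA 2 held its lowest values. Without these 2 libraries Atp5g2 was higher in Valine by 0.17 (SE 0.06, adjusted p 0.0316).

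By share of the summed c-subunit signal per length, Atp5g2 made up 25.2%, 24.5% and 14.0% in Control and 32.4%, 34.5% and 31.5% in Valine, where the groups did not overlap. In Val+PA the share was 30.4%, 23.4% and 28.5%, and Val+PA 2 lay within the Control range. Atp5g1 made up 9.90%, 10.3% and 10.2% in Control and 7.18%, 7.9% and 8% in Valine. The order of these 2 genes depends on the length used, with annotated exons of 4912 bases for Atp5g1 and 1675 for Atp5g2. By CPM, without length, the Control mean was 112 for Atp5g1 and 78.7 for Atp5g2. The remainder was Atp5g3, with a mean of 68.7% for Control, 59.5% for Valine and 63.2% for Val+PA.

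**Figure D4:**
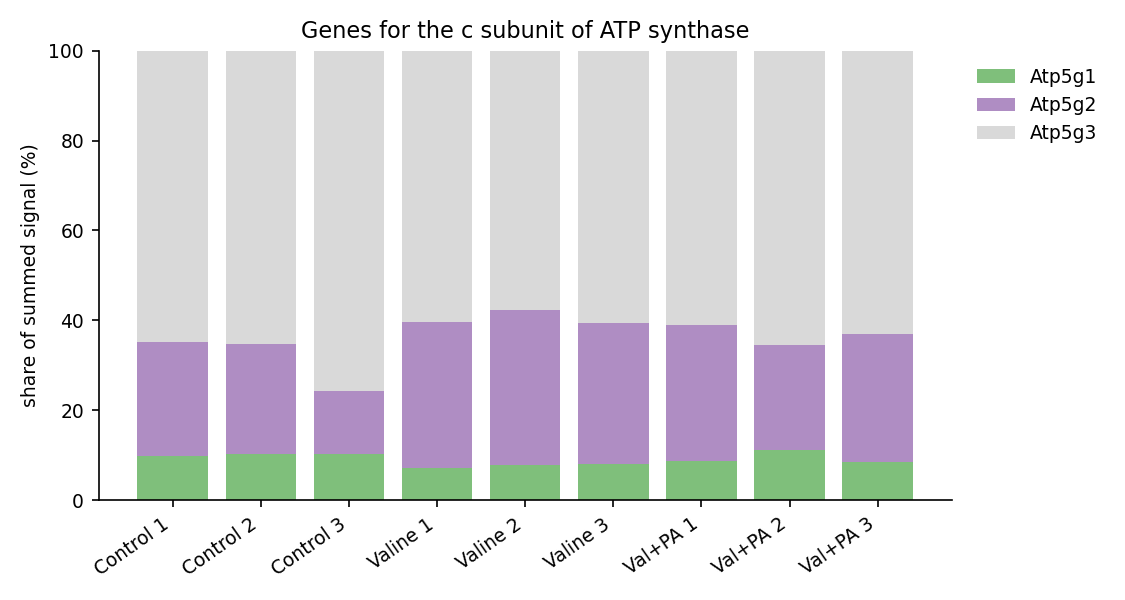
Share of the summed deposited signal per length (y axis, percent) of the 3 c-subunit genes in each library (x axis), stacked to 100%. The Atp5g2 share is 31.5% to 34.5% in Valine and 14.0% to 25.2% in Control, with the lowest value in Control 3.

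The large subunits of the catalytic head were slightly lower in Valine, and in Val+PA the alpha subunit passed the test with all libraries. Atp5a1, the alpha subunit, measured 936, 927 and 960 CPM in Control, 740, 734 and 763 CPM in Valine and 716, 850 and 757 CPM in Val+PA. It fell by 0.34 (SE 0.09, adjusted p 0.0116) and 0.28 (SE 0.09, adjusted p 0.0291) without overlap. The Valine call was lost without Valine 1 or Valine 2 (adjusted p up to 0.0558), and the Val+PA call held only without Control 3 or Val+PA 2, with an adjusted p of up to 0.0973 elsewhere. Atp5b, the catalytic subunit, measured 1990, 1930 and 1910 CPM in Control, 1620, 1580 and 1600 CPM in Valine and 1540, 1870 and 1630 CPM in Val+PA. It was called lower in Valine (log2 -0.28, SE 0.09, adjusted p 0.0308), a call lost without Control 1, Control 2 or any 1 Valine library (adjusted p up to 0.107). In Val+PA it was not called with all libraries (log2 -0.21, adjusted p 0.0932) and was lower without Control 3 and Val+PA 2 (log2 -0.31, adjusted p 0.000247).

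Atp5f1, subunit b of the stator that holds the head still, measured 383, 377 and 385 CPM in Control, 323, 323 and 309 CPM in Valine and 301, 211 and 281 CPM in Val+PA. The 3 groups did not overlap and fell in that order. Atp5f1 was lower in Val+PA by 0.53 (SE 0.12, adjusted p 0.00442), while the Valine difference of -0.26 had an adjusted p of 0.103. That difference passed at -0.25 without Control 3 and Val+PA 2 (adjusted p 0.00139). It shares 337 exon bases with Wdr77 on the opposite strand. The other complex V members, among them Atp5c1, Atp5d and Atp5e of the central stalk and Atp5o and Atp5h of the stator, were called in neither comparison with Control when all libraries were used. The fit without Control 3 and Val+PA 2 called Atp5c1 lower in both, at -0.21 (adjusted p 0.0225) and -0.38 (adjusted p 0.000913), and Atp5j, a stator subunit, lower in Valine (-0.32, adjusted p 0.0246). For Val+PA it called Atp5o lower, at -0.39 (adjusted p 0.00598), and Atp5h higher, at 0.33 (adjusted p 0.00878).

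In Val+PA against Valine, no member passed the threshold. By the labels these groups differ in palmitic acid, in hours of valine (24 h and 36 h) and in plate, which cannot be told apart. The edgeR test called 0 of 90 members and 0 of 18415 genes (0%), while 7 members and 2428 genes had an unadjusted p below 0.05. The median of the members was -0.028. DESeq2 called 1 member, Uqcrb, beside 192 of 33116 genes, and limma on the deposited signal called 0 members. Uqcrb had the smallest adjusted p, 0.229, at a log2 difference of -0.66 (SE 0.17) and with all Val+PA libraries below all Valine libraries. After Control 3 and Val+PA 2 were left out, Uqcrb fell by 0.49 (SE 0.12, adjusted p 0.0334), beside 3.21% of all genes called. A missed threshold does not show that the groups were alike. In data simulated at the same depth, 13 of 50 genes changed 1.5-fold and 36 of 50 changed 2-fold were recovered in this comparison. The simulation gave each gene the same spread in all libraries, with no shift of a whole library. In the real data, the chi-square per degree of freedom between replicate libraries was 3.71 to 4.98 in Valine and 18 to 79.8 in Val+PA. The recovery therefore cannot be carried over to the real groups.

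The members themselves showed how Control 3 and Val+PA 2 stood apart. Cox6a1 was 1.36 log2 units above the mean of the other Control libraries in Control 3 and 0.82 above that of its group in Val+PA 2. Cycs was 1.03 and 1.36 below, and Cox7b, a small complex IV subunit, was 0.91 and 0.93 below. Sdhc, Uqcrfs1 and Atp5h were high in Control 3 alone to that degree, at 1.00, 0.99 and 0.98, against 0.21, 0.23 and 0.23 in Val+PA 2. Across the 90 members the 2 libraries' deviations had a Pearson r of 0.58 and a Spearman rho of 0.49, as a description across genes that share these libraries, and over all genes r was 0.34. Both lay below their groups for 21 members, both above for 37, and 32 were split. The correlation of either deviation with gene length was weak (-0.06 and -0.14).

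**Figure D5:**
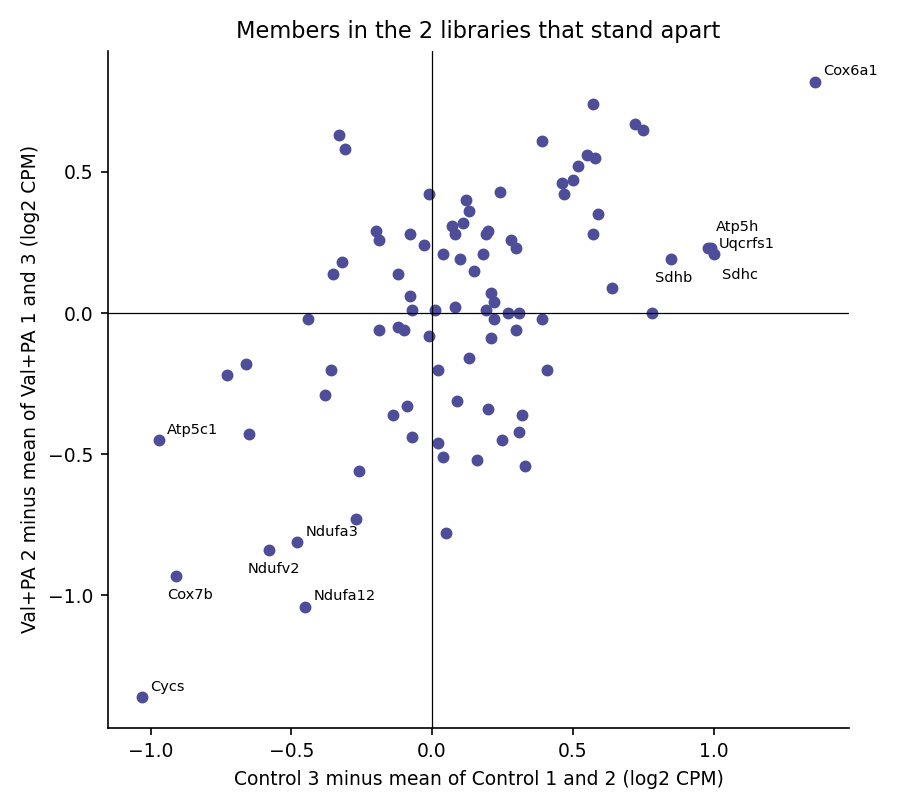
Each point is a tested member, placed by its deviation in Control 3 (x axis) and Val+PA 2 (y axis) from the mean of the other 2 libraries of the group, in log2 CPM. Cycs and Cox7b lie low in both libraries and Cox6a1 lies high in both, at 1.36 and 0.82.

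Genes outside the members that build, regulate or feed the respiratory chain were read from lists chosen for their function. Of 43 tested assembly genes, 7 were higher and 9 lower in Valine, and 6 and 9 in Val+PA. These shares of 37.2% and 34.9% lay near the 41.9% and 39.2% of all genes. Cox17, which carries copper to complex IV, was higher by 0.99 (SE 0.11) and 0.88 (SE 0.11). Cmc2, also of complex IV, fell by 1.19 (SE 0.15) and 1.25 (SE 0.15). Without Control 3 and Val+PA 2, 13 were higher and 13 lower in Valine and 11 and 11 in Val+PA.

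Of 21 tested regulators of respiratory genes, 1 was higher and 7 were lower in Valine, and 1 and 6 in Val+PA. The shares called, 38.1% and 33.3%, were also near those of all genes. The higher one was Ppargc1a, the coactivator PGC-1alpha. It measured 1.31, 1.28 and 1.77 CPM in Control, 8.64, 7.38 and 6.71 CPM in Valine and 6.3, 5.44 and 8.31 CPM in Val+PA, higher by 2.39 (SE 0.21, adjusted p 4.85e-06) and 2.21 (SE 0.21, adjusted p 8.69e-06). Its relative Pprc1 fell by 1.29 (SE 0.25) and 0.88 (SE 0.25). Nrf1 fell by 0.32 (adjusted p 0.0465) and 0.38 (adjusted p 0.0241), and Tfam, the factor that packs and transcribes mitochondrial DNA, by 0.40 (adjusted p 0.0189) and 0.41 (adjusted p 0.0183). Lrpprc, which stabilises mitochondrial messages, fell by 0.83 and 0.60. Esrra, Gabpa and Ppargc1b were not called with all libraries. Without Control 3 and Val+PA 2, Esrra was lower in Valine (log2 -0.28, adjusted p 0.0282) and Gabpa was higher (log2 0.21, adjusted p 0.0284). With Control 3 and Val+PA 2 left out, 3 regulators were higher and 8 lower of 22 in Valine, and 2 and 7 in Val+PA, with Ppargc1a at 2.55 and 2.49.

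Slc25a5 and Slc25a3, carriers that serve the ATP synthase, were lower in both comparisons. In the list for uncoupling and ATP export, 2 of 10 tested genes were higher and 4 lower in Valine, and 2 and 3 in Val+PA. The shares called were 60% and 50%, beside 41.9% and 39.2% of all genes. Slc25a5, an exchanger of ADP and ATP, measured 640, 672 and 405 CPM in Control, 347, 346 and 325 CPM in Valine and 348, 268 and 320 CPM in Val+PA, and fell by 0.75 (adjusted p 0.00356) and 0.87 (adjusted p 0.00143). Slc25a3, the phosphate carrier, fell by 0.67 and 0.70. Ucp2, of the uncoupling protein family, was higher by 0.63 (SE 0.12, adjusted p 0.00107) and 1.15 (SE 0.12, adjusted p 1.33e-05). Leaving out the 2 libraries gave 3 higher and 4 lower in Valine and 3 and 3 in Val+PA, and Ucp2 was then also higher in Val+PA than in Valine (log2 0.44, adjusted p 0.0164).

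Upstream of complex III, 4 of 13 genes of coenzyme Q synthesis were higher and 5 lower in Valine, and 5 and 4 in Val+PA. The share called was 69.2% in each, beside 41.9% and 39.2% of all genes. Pdss1, which starts the isoprenoid tail, fell by 1.5 (SE 0.14) in Valine and had a log2 difference of -1.81 (SE 0.15) in Val+PA, and the kinase-like Coq8a was higher by 1.83 (SE 0.26) and 1.92 (SE 0.26). Of 8 tested genes of other electron donors to coenzyme Q, 1 was higher and 3 were lower in each comparison, a share of 50%. Gpd2, the glycerol-3-phosphate dehydrogenase, fell by 0.83 (SE 0.10) and 0.88 (SE 0.10), and Sqor, which oxidises sulfide, rose by 0.68 (SE 0.11) and 0.82 (SE 0.11). The tricarboxylic acid cycle had 0 higher and 2 lower of 18 in each (11.1%), a smaller share than that of all genes. In the cycle, Idh3a fell by 0.74 (SE 0.09) and by 0.73 (SE 0.09). After Control 3 and Val+PA 2 were left out, the cycle had 2 higher and 5 lower in Valine and 2 and 6 in Val+PA. Coenzyme Q synthesis had 6 and 5 and then 6 and 4, and the other donors had 2 and 3 and then 2 and 2. In that fit 54.1% and 49.8% of all genes were called.

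The 13 protein genes of mitochondrial DNA, partners of the members in complexes I, III, IV and V, had 0 higher and 5 lower in Valine and 0 and 0 in Val+PA. The shares called were 38.5% and 0%, beside 41.9% and 39.2% of all genes. mt-Nd2, of complex I, measured 133, 131 and 533 CPM in Control, 56.8, 57.7 and 60.4 CPM in Valine and 68.4, 176 and 177 CPM in Val+PA. Control 3 was far above every other library, and the Valine difference was -2.19 (SE 0.50, adjusted p 0.00426). mt-Co1, of complex IV, measured 3810, 3790 and 1230 CPM in Control and 4910, 865 and 2930 CPM in Val+PA, low in Control 3 and Val+PA 2. Without Control 3 and Val+PA 2, 2 of the 13 were higher and 6 lower in Valine, with mt-Nd2 at -1.18 (adjusted p 0.000343), and 3 were higher and 1 lower in Val+PA. In the same fit 5 of the 13 were higher in Val+PA than in Valine, beside 3.21% of all genes called. These were mt-Nd2 (1.07, adjusted p 0.0181), mt-Nd4 (1.10), mt-Nd5 (0.75), mt-Nd6 (1.13) and mt-Atp6 (0.73), whereas with all libraries 0 of 13 were called and 5 had an unadjusted p below 0.05 in the edgeR test.

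Markers of muscle state were also higher than in Control in both treated groups, as Cox6a2 was. Of the myotube markers, 10 of 10 tested were higher in both, with a summed level of 447 to 508 CPM in Control, 1010 to 1030 CPM in Valine and 602 to 742 CPM in Val+PA. Between Val+PA and Valine, 10 of 10 had a log2 difference below 0 (median -0.247), with 0 called. Over all genes tested, 9084 of 18415 lay below 0 (median 0.004). Cox6a2 had a difference of 0.31 (adjusted p 0.564). Without the 2 libraries 3 of these 10 were lower in Val+PA than in Valine, and Cox6a2 was at 0.06. Myoblast markers had 5 of 10 higher and 0 lower, with sums of 2880 to 3110, 4240 to 4430 and 4020 to 6000 CPM. Fibroblast markers had 7 of 9 tested higher in Valine and 8 in Val+PA, with sums of 1200 to 1780, 3420 to 3530 and 3140 to 4340 CPM. When the 2 libraries were left out, myotube markers had 10 higher in both, myoblast markers 6 higher and 0 lower in Valine and 5 and 1 in Val+PA, and fibroblast markers 9 and 8 higher of 9. Val+PA against Valine then had 2 myoblast and 2 fibroblast markers lower. Adipocyte markers summed to 18.9 to 32.1, 85.4 to 91.8 and 62.3 to 89.8 CPM, with Lpl the only 1 of 8 at a mean of at least 1 CPM and 3 at 0 in all libraries. Endothelial markers summed to 1.83 to 2.26 CPM in Control, 6.44 to 7.86 CPM in Valine and 6.35 to 10.9 CPM in Val+PA. Of 3 tested, 3 were higher in Valine and 2 in Val+PA. Immune markers summed to 2.34 to 3.66, 5.71 to 6.89 and 5.99 to 7.68 CPM, with 1 of 3 tested higher and 1 lower in each comparison. Over all genes, 20.8% were higher in Valine and 20.4% in Val+PA. With the 2 libraries left out, these shares were 27% and 25.2%, and 1.55% of all genes were lower in Val+PA than in Valine. The part of these cell states and cell types in the differences of the members was not tested.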

How the data were processed

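Reads were counted per gene by the authors, and the deposited whole-number counts, not normalized, were tested here. Per the submitters' processing notes, the tools were HISAT2, featureCounts and DESeq2 on the build GRCm38, with no versions listed. How strand was handled in counting, and which annotation was used, is not given in the sources used here. A normalized signal, deposited and made by the authors, scales each count by gene and library and served for levels between genes. Symbols and coordinates came from GENCODE M21 (97.1% of gene rows). The 3 Val+PA columns carry a shortened code and were matched by it.

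Genes were filtered with filterByExpr, scaled by TMM and tested in 1 edgeR fit (edgeR 4.0.16, R 4.3.3; quasi-likelihood F test, two-sided, group means, all 9 libraries, 6 residual degrees of freedom). P-values were adjusted by Benjamini-Hochberg over 18415 genes, with calls below 0.05. Standard errors are the log2 fold change divided by the root of F. Alternatives were DESeq2 1.42.0, limma 3.58.1 on log2(signal + 1) or log2(signal + 0.1), other scalings and filters, a replicate block and leaving out libraries. Replicate libraries differed by more than sampling noise (chi-square per degree of freedom from 3.71).

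Named are the called members with the 2 largest rises and falls per complex at a mean of at least 2 CPM, the smallest p where none was called, isoform families, a fixed set of central subunits, and the extreme called genes of each list. A result that this rule would name is not reported here. Other called members were added after their values were seen. Members and lists were chosen with earlier results of these data known.

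Simulated counts were drawn independently for each gene and library, without shifts of a whole library. For Valine against Control, 31 of 50 genes changed 2-fold and 45 of 50 changed 4-fold were recovered. Of the calls, 6.25% were of unchanged genes (7.53% for Val+PA against Valine and 9.35% for Val+PA against Control). An initial limit of under 10 unchanged genes called was missed in 2 of the 3 comparisons, with 11 and 13, and was replaced after that result by under 10% of calls.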

Additional observations from a re-analysis of the deposited data

How the results depend on the processing

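Leaving out 1 library at a time gave 7 to 10 higher and 7 to 21 lower members in Valine against Control, with medians from -0.187 to -0.046, and 8 to 13 higher and 10 to 19 lower in Val+PA against Control. The lower count for Valine was 7 without Valine 3 (6002 of 18832 genes called) and 21 without Val+PA 2 (9244 of 18974). That for Val+PA was 10 without Control 1 (6188 of 18916 genes called) and 10 without Val+PA 3 (6090 of 18946). The count of members thus moved with the count of all genes called. The median of -0.046 came without Control 3. Without Control 3 and Val+PA 2 together, an alternative chosen after seeing the data, Valine had 15 higher and 24 lower members and a median of -0.044, Val+PA had 15 higher against Control, and 1 member was lower in Val+PA against Valine. In that comparison DESeq2 called 1 lower member, beside 192 of 33116 genes. There edgeR with no low-count filter called 2 members higher (Cox6a1, Uqcrc1) and 3 lower (Uqcrb, Cycs, Cox7b), beside 763 of 33116 genes. Library size alone moved the Valine median to -0.054. In Val+PA against Control, limma on log2(signal + 1) without a filter left 9 lower members, beside 6117 of 33116 genes called. With 1 library left out at a time, Sdhc in Val+PA against Control ran from -0.26 to 0.33. It reversed from -0.08 to 0.33 without Control 3 and to 0.26 without Control 3 and Val+PA 2. The cause of these shifts was not tested.

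Replicate numbers name wells on different plates. Deviations of same-numbered libraries correlated at -0.41 to 0.24, and a fit with the replicate block gave 9 higher and 12 lower members in Valine against Control, 9 and 15 in Val+PA against Control and 0 and 0 in Val+PA against Valine. At this depth, members with 57 counts or fewer over all libraries could not be tested.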
